A study of Mus musculus with 12 samples.

Results

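Periportal hepatocytes are the liver cells next to the portal tract, where blood rich in nutrients and oxygen enters the lobule. Their fasting response was read as 3 libraries of fasted mice against 3 libraries of fed mice, which are 6 of the 12 libraries of the series; the other 6 hold pericentral hepatocytes, from around the central vein. All 12 hold total RNA from female wild-type (WT) mice, 12 weeks old, on a normal chow (lab diet 5053). The strain was not given in the sources used here. Training came first, 3 days on a cycle of a 16 h fast and 8 h with food. The fed group then ate for 4 h with water that held 20% sucrose, and the fasted group went without food for 24 h. The labels name digitonin, a detergent that opens cell membranes, which is infused from one side of the lobule to remove the cells of that side. The fed state here is therefore a meal with sugar after training, not free feeding, and every fold change compares a fast with that meal. The labels call the libraries biological replicates but do not say which mouse each came from, so p-values measure only how much these libraries vary. Of 28030 genes listed, 12086 passed the filter on low counts and were tested.

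In a fed liver, insulin and sugar turn on glycolysis and the synthesis of fatty acids and sterols. In a fast, glucagon, glucocorticoids and falling insulin turn on gluconeogenesis, the use of amino acids and the oxidation of fatty acids that arrive from adipose tissue. Periportal hepatocytes are known for gluconeogenesis, urea synthesis, amino acid breakdown and fatty acid oxidation, and pericentral hepatocytes for glycolysis, glutamine synthesis and drug metabolism.

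The 6 periportal libraries held 18880742 to 23969208 estimated counts. The first principal component of their log2 levels held 45.4% of the variance and separated the 3 fasted from the 3 fed libraries. In the fed group, replicate 1 was the lowest of the 3 for 25 of 29 lipogenesis genes and 23 of 27 genes of cholesterol synthesis and uptake, and the highest for 27 of 30 genes of fatty acid oxidation and ketogenesis. Fed replicate 3 was the lowest of the 3 for all 30 of these. In the fasted group replicate 3 stood apart for red cell genes, chiefly the globin genes, whose near-identical copies share reads: markers of lymphocytes, neutrophils and red cells summed to 149 CPM, counts scaled to library size, there, against 5.73 to 12.6 CPM in the other 5 libraries. Fasted replicate 3 was also the lowest of its group for 25 of 27 genes of cholesterol synthesis and uptake and 23 of 38 pericentral markers. Leaving out a library is reported where it changed a call, or moved a list's count or median by over 1.5 times.

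The feeding states also differed in low-level reads of genes known chiefly from hair and skin, whose source was not tested. After the values were seen, genes with 5 or more counts in each of the 6 libraries of one state and 0 counts in each of the 6 of the other were counted over both zones. There were 15 with reads in fed libraries alone and 0 with reads in fasted libraries alone. Of these 12 were tested, and all 12 were called lower in periportal hepatocytes. Choosing genes by 0 counts in fasted libraries fixed that direction beforehand, so the calls add no support. They include 10 keratin, keratin-associated, filaggrin and late cornified envelope genes, which build hair and the outer skin. Krtap3-3 stood at 2.47, 2.3 and 2.39 CPM in the fed periportal libraries, and Flg2 at 2.22, 2.72 and 2.44 CPM, with 0 in every fasted library. Over the 12 genes, levels in the fed periportal libraries ran from 0.256 to 2.72 CPM. The day or run on which each library was made was not given in the sources used here. A step of handling or sequencing shared by the fed libraries and the feeding state itself cannot be told apart, for these genes or for any other fold change below.

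For the markers named here, the 6 periportal libraries matched the labelled zone when set against fed pericentral libraries. Cyp2f2, Hal and Cdh1, known periportal genes, stood at 1106 to 2187, 609 to 1429 and 38.6 to 145 CPM, against means of 95.2, 88.1 and 8.25 CPM in fed pericentral libraries. Glul, glutamine synthetase of the cells around the central vein, stood at 49.3 to 173 CPM, against a mean of 1834 CPM in fed pericentral libraries. Fasted pericentral libraries, which enter the fit, were not all alike. Slc1a2, a pericentral marker picked after its values were seen, stood at 13.1 CPM in fasted pericentral replicate 1. In replicates 2 and 3 it stood at 634 and 552 CPM, and in the fed pericentral libraries at 211, 232 and 244 CPM. The cause was not tested. Markers of other liver cells were low and none was called: 10 of 16 Kupffer cell, 14 of 16 endothelial, 7 of 16 stellate cell, 8 of 12 bile duct cell and 6 of 17 blood cell markers passed the filter. Their summed levels were 5.41 to 17.6 and 7.26 to 11.2 CPM (fed and fasted) for Kupffer cells, 15.9 to 29.4 and 9.6 to 49.9 for endothelium, 9.58 to 15.9 and 7.52 to 14.8 for stellate cells, and 80.7 to 107 and 68.4 to 84.7 for bile duct cells. Without fasted replicate 2, 2 endothelial markers were called lower, and without fasted replicate 3, 1 was called higher. Whether these cells have a part in the results was not tested. Acta2, a stellate cell and smooth muscle gene, was at 0 in all 6 libraries. In these bulk samples, fewer cells of a type and less RNA per cell cannot be told apart.

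After 24 h of fasting 1014 genes were higher (8.39% of those tested) and 1148 lower (9.5%), together 17.9% of tested genes. A gene was called at an edgeR quasi-likelihood adjusted p under 0.05. The 3 fasted libraries all lay above or all below the 3 fed ones in 34.6% of tested genes, and in 988 of the genes called higher and 1126 of those called lower. Of the called genes, 319 rose and 393 fell by 2-fold or more, and 79 rose and 102 fell by 4-fold or more. The median log2 fold change was 0.74 among genes called higher, -0.77 among those called lower and 0.00 over all genes tested. Genes called higher together made up 84650 CPM in fed and 144000 CPM in fasted libraries, on average, and genes called lower 111800 and 58140 CPM. Without fed replicate 2, 1405 genes were called (663 higher, 742 lower), and without fasted replicate 1, 738 were called lower.

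**Figure D1:**
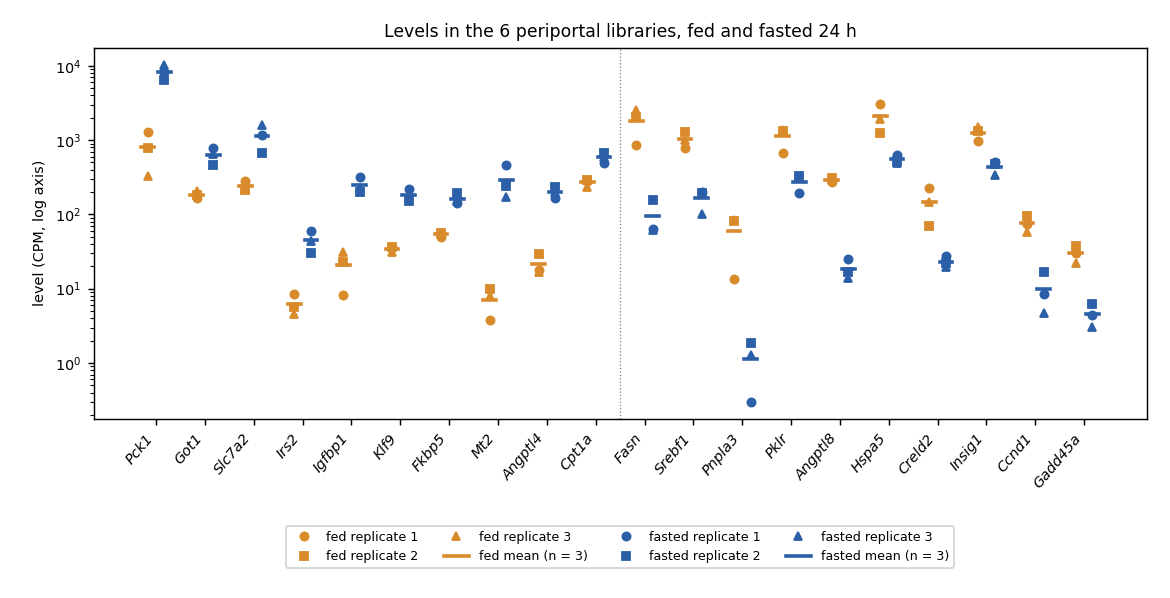
Levels of 20 genes in each of the 6 periportal libraries, in CPM on a log axis; orange marks are fed and blue marks fasted libraries, each shape is a replicate number and each bar a group mean (n = 3). The 10 genes on the left were higher and the 10 on the right lower in every fasted library than in every fed one.

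Where groups were called and did not overlap, and the level averaged 5 CPM or more, the steepest rises included metallothioneins, insulin-suppressed genes and a few genes of low fed level. Mt2, which encodes a zinc-binding metallothionein, stood at 3.79, 9.76 and 7.85 CPM in the fed libraries and 459, 241 and 171 CPM in the fasted ones, or 5.35 ± 0.67 as log2 fold change with its SE (edgeR adjusted p = 0.00091). Every fasted library exceeded every fed one more than 10-fold. Mt1, its neighbour on chromosome 8, rose from 23.2, 36.4 and 33.4 to 561, 304 and 217 CPM (3.54 ± 0.57); the pair are near-identical, so reads could be split between them. Cdkn1a, which encodes the cell cycle inhibitor p21, rose by 3.61 ± 0.70, and Hdc, the enzyme that makes histamine, by 3.40 ± 0.47. Nlrp12, an innate immune sensor, rose by 2.74 ± 0.41, Maff, a basic leucine zipper factor, by 2.60 ± 0.41, and Lgals4, a galectin, by 2.59 ± 0.42. Their fed levels were at or under 5.16 CPM in all 3 libraries.

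The steepest falls under the same rule joined lipogenic genes with genes not known for a role in lipid synthesis. Chrna4, a subunit of the neuronal acetylcholine receptor, stood at 3.71, 46.4 and 114 CPM in the fed libraries and 0.401, 1.01 and 0.775 CPM in the fasted ones (-6.20 ± 1.24; edgeR adjusted p = 0.0087). Its fed libraries spread over more than 30-fold, with replicate 1 lowest, and still did not overlap the fasted ones. With the periportal libraries alone in the fit, its adjusted p was 0.055. Slc34a2, a sodium phosphate cotransporter, went from 10.7, 49.7 and 19.3 to 0.451, 0.747 and 1.09 CPM (-5.10 ± 0.88). Angptl8, the insulin-induced inhibitor of lipoprotein lipase made by liver, went from 273, 308 and 288 to 25.1, 16.8 and 13.9 CPM (-3.96 ± 0.21; edgeR adjusted p = 1.5e-06), with tight replicates in both groups. A1bg, a plasma glycoprotein, fell by 3.79 ± 0.48, Atp2b2, a calcium pump of the plasma membrane, by 3.49 ± 0.55, Slc2a4, the insulin-regulated glucose transporter GLUT4, by 3.44 ± 0.70, and Inhba, the activin A subunit, by 3.10 ± 0.31 on the log2 scale. On GRCm38, Chrna4 lies on chromosome 2 from 181018380 to 181043546, Slc34a2 on chromosome 5 from 53038081 to 53071664 and Angptl8 on chromosome 9 from 21835510 to 21837347.

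Measured in CPM, the largest rises were those of Pck1, Apoe, Mat1a, Ahcy and Arg1, and Acly, Elovl6, Fasn and Thrsp were among the 5 largest falls. Ahcy, which clears the S-adenosylhomocysteine left by methylation reactions, stood at 3281, 2739 and 3123 CPM in the fed libraries and 7315, 4848 and 4599 CPM in the fasted ones (0.87 ± 0.17). Mat1a, which makes S-adenosylmethionine, went from 2533, 2062 and 2201 to 4698, 3429 and 3192 CPM (0.74 ± 0.16). The enzymes before and after methyl transfer thus rose together. Apoe, an apolipoprotein, had 20840, 20420 and 18850 CPM fed and 29630, 26010 and 21980 CPM fasted (0.37 ± 0.12; edgeR adjusted p = 0.046). Its change lost its call without fed pericentral replicate 1, 2 or 3, fed replicate 1, 2 or 3, fasted pericentral replicate 2 or 3 or fasted replicate 1 or 2 (adjusted p up to 0.15), and with upper-quartile scaling.

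Gluconeogenesis genes split. Pck1, which commits oxaloacetate to glucose synthesis, rose from 1271, 791 and 332 CPM to 8245, 6426 and 10350 CPM (3.39 ± 0.67; edgeR adjusted p = 0.0078). Fed replicate 3 was the lowest and fasted replicate 3 the highest, and the groups stood apart in all libraries. Got1, the cytosolic aspartate aminotransferase, rose by 1.77 ± 0.17. G6pc, which frees glucose from glucose 6-phosphate, had a log2 fold change of 0.94 ± 0.25 and lost its call without fed replicate 1 or 3 or fasted replicate 2 (adjusted p up to 0.093). Ppargc1a, a coactivator of the fasting programme, had 1.59 ± 0.39 and lost its call without fed replicate 1 or 2 (adjusted p up to 0.064). Pcx, pyruvate carboxylase, had 0.93 ± 0.25 and lost its call without fed replicate 2 or 3 or fasted replicate 2 (adjusted p up to 0.09). Fbp1, which carries the step between those of Pck1 and G6pc, stood at 1488, 1472 and 1301 CPM fed and 1373, 1330 and 1605 CPM fasted (0.02 ± 0.11; edgeR adjusted p = 0.94), with overlapping groups. Of 18 tested genes of the list, 5 were higher (27.8%) and 2 lower (11.1%), against 8.39% and 9.5% of all tested genes. The list's median was 0.14, from 0.10 without fed replicate 1 to 0.25 without fasted replicate 3. The higher count was 3 without fed replicate 2 or fasted replicate 2, and the lower count 0 without fed replicate 2 or 3 or fasted replicate 1 or 2 and 1 without fed pericentral replicate 2. The 2 members called lower stand in another list as well.

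Genes of glycolysis and fructose use were mostly lower where they were called. Pklr, the liver pyruvate kinase, went from 679.5, 1344 and 1349 to 196, 325 and 306 CPM (-2.03 ± 0.31; edgeR adjusted p = 0.0014), with no overlap between the groups. Tkfc, which phosphorylates glyceraldehyde from fructose, fell by 1.08 ± 0.20 on the log2 scale. Gpi1, phosphoglucose isomerase, had -1.12 ± 0.29, a call lost without fed replicate 2 or 3 or fasted replicate 1 or 2 (adjusted p up to 0.083). Mlxipl, the sugar-sensing factor ChREBP, had -1.19 ± 0.29, a call lost without fed replicate 2 or 3 or fasted replicate 1 (adjusted p up to 0.072). Pdk4 and Pdk2, kinases that switch off pyruvate dehydrogenase, were the 2 members called higher. Pdk4 stood at 4.31, 4.27 and 9.31 CPM fed and 26.2, 60.6 and 101 CPM fasted (3.40 ± 0.78), a call lost without fed replicate 1 or 2 (adjusted p up to 0.066). Pdk2 had 0.47 ± 0.13, a call lost without fed replicate 1 or 2 or fasted replicate 1 or 3 (adjusted p up to 0.084). In all, 2 of 21 were higher (9.52%) and 6 lower (28.6%), against 8.39% and 9.5% of all tested genes. The share called higher was thus near that of all tested genes. The list's median was -0.14, from -0.18 without fed replicate 3 to -0.09 without fed replicate 2. Its higher count was 0 without fed replicate 1 or 2 and 1 without fasted replicate 1 or 3. The lower count was 3 without fed replicate 2 or 3 or fasted replicate 1.

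Glycogen genes were called in both directions. Stbd1, which tethers glycogen to membranes, fell by 0.80 ± 0.17 on the log2 scale, and Epm2a, the glycogen phosphatase laforin, rose by 0.81 ± 0.19. Ppp1r3c, which targets protein phosphatase 1 to glycogen, went from 62.5, 64.2 and 125 to 32.6, 25.1 and 12.9 CPM (-1.83 ± 0.44), a call lost without fed replicate 3 or fasted replicate 2 (adjusted p up to 0.061). Its relative Ppp1r3b had -0.58 ± 0.36 and was not called. Gyg, glycogenin, had 0.57 ± 0.18, a call lost without fed pericentral replicate 2 or 3, fed replicate 1 or 2, fasted pericentral replicate 2 or fasted replicate 2 or 3 (adjusted p up to 0.13), and Phka2, of phosphorylase kinase, had 0.47 ± 0.14, a call lost without fed pericentral replicate 1, 2 or 3, fed replicate 1 or 2, fasted pericentral replicate 2 or fasted replicate 1 or 2 (adjusted p up to 0.12). Ppp1r3g, another phosphatase subunit, stood at 0.426, 0.469 and 0 CPM fed and 25.9, 0 and 39.5 CPM fasted, so that fasted replicate 2 lay within the fed group; its call was lost without fed pericentral replicate 1, 2 or 3, fed replicate 1, 2 or 3 or fasted replicate 1 or 3 (adjusted p up to 0.12). Of 18 tested, 4 were higher (22.2%) and 3 lower (16.7%), against 8.39% and 9.5% of all tested genes. The list's median was -0.14, from -0.21 without fasted replicate 3 to -0.05 without fasted replicate 2. Its higher count was 1 without fed pericentral replicate 2 or 3 or fed replicate 1 or 2. It was 2 without fed pericentral replicate 1 or fasted replicate 1 or 2, and the lower count was 1 without fed replicate 3. Without a filter, and with periportal libraries alone, 1 member was called higher.

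Genes of amino acid breakdown rose where they were called, apart from Glyctk, glycerate kinase (-0.66 ± 0.11). Tdo2, which opens tryptophan breakdown, rose from 849, 687 and 808 to 1760, 1669 and 1443 CPM (1.06 ± 0.16; edgeR adjusted p = 0.00091). Aass, of lysine breakdown, rose by 0.88 ± 0.13, and Cdo1, of cysteine oxidation, by 0.97 ± 0.20. Sds, which turns serine to pyruvate and is a periportal gene, stood at 158, 275 and 220 CPM fed and 952, 818 and 825 CPM fasted (1.99 ± 0.59); its call was lost without fed pericentral replicate 1, 2 or 3, fed replicate 1, 2 or 3 or fasted replicate 1, 2 or 3 (adjusted p up to 0.13). Hal, which starts histidine breakdown, stood at 609, 621 and 618 CPM fed and 1429, 1369 and 1121 CPM fasted, with both groups tight and apart. Yet its log2 fold change of 1.08 ± 0.64 was not called in the fit over all 12 libraries (edgeR adjusted p = 0.29). Fitted on the 6 periportal libraries alone it was called (edgeR adjusted p = 0.0026), as it was in the fit without fasted pericentral replicate 1. That library enters the spread that all groups share. Tat, tyrosine aminotransferase, had 1812, 1361 and 2338 CPM fed and 3935, 2174 and 5364 CPM fasted (1.06 ± 0.35; edgeR adjusted p = 0.058), with fasted replicate 2 inside the fed range. Of 43 genes tested, 8 were higher (18.6%) and 1 lower (2.33%), against 8.39% and 9.5% of all tested genes. The list's median was 0.28, and 34 members had log2 fold changes above 0. The higher count was 14 without fasted pericentral replicate 1, and 14 by DESeq2's Wald test.

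In the urea cycle the last steps moved. Arg1, arginase, which releases urea, rose from 1453, 1543 and 1639 to 3213, 2499 and 2642 CPM (0.85 ± 0.19; edgeR adjusted p = 0.0082). Asl, which cleaves argininosuccinate, had 0.82 ± 0.23, a call lost without fed replicate 1 or 2 or fasted replicate 1 (adjusted p up to 0.11). Slc25a22, a mitochondrial glutamate carrier, had 0.68 ± 0.21, a call lost without fed pericentral replicate 1, 2 or 3, fed replicate 1, 2 or 3, fasted pericentral replicate 2 or fasted replicate 1, 2 or 3 (adjusted p up to 0.13). Cps1, the entry enzyme that fixes ammonia, had 3420, 3614 and 5541 CPM fed and 4999, 3783 and 3909 CPM fasted (0.01 ± 0.24); its sign turned with upper-quartile scaling and without some libraries. So 3 of 10 tested were higher (30%) and 0 lower, against 8.39% and 9.5% of all tested genes. The list's median was 0.18, from 0.08 without fasted replicate 1 to 0.28 without fed replicate 3. Its higher count was 1 without fed replicate 1 or 2 or fasted replicate 1. Of 21 amino acid transporters 3 were higher (14.3%) and 0 lower, against the same shares of all tested genes. Their median was -0.01, from -0.14 without fasted replicate 3 to 0.12 without fasted replicate 1. The lower count was 1 without fed replicate 1 or 2 or fasted pericentral replicate 1. Slc7a2, which imports arginine and lysine, went from 278, 214 and 221 to 1166, 670.2 and 1586 CPM (2.26 ± 0.29), and Slc38a2, of neutral amino acids, from 106, 102 and 88.8 to 302, 229 and 326 CPM (1.53 ± 0.20). Slc38a4 had 0.93 ± 0.27, a call lost without fed pericentral replicate 2, fed replicate 2 or 3 or fasted replicate 1 or 3 (adjusted p up to 0.12).

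Among genes of insulin signalling and targets of the factor FoxO1, which insulin holds down, 11 of 24 tested were higher, 1 was lower and 12 were not called, with a median of 0.60. The shares were 45.8% higher and 4.17% lower, against 8.39% and 9.5% of all tested genes. Igfbp1, a secreted binder of insulin-like growth factors, went from 8.19, 22.8 and 31.6 CPM to 322, 200.3 and 225 CPM (3.58 ± 0.58; edgeR adjusted p = 0.003). Irs2, the docking protein of the insulin receptor, went from 8.53, 5.68 and 4.58 to 60.2, 30.7 and 43.3 CPM (2.83 ± 0.39). Both genes had no fed library near the fasted range. Insr, the receptor itself, rose by 0.59 ± 0.11, Foxo1 by 1.17 ± 0.23 and the FoxO target Ccng2, a cyclin of quiescent cells, by 1.95 ± 0.20. Pik3r1, a regulatory subunit of phosphoinositide 3-kinase, was the 1 member called lower (-0.54 ± 0.13). Leaving out libraries, the higher count was 7 without fed replicate 2, and the lower count 2 without fasted replicate 3.

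Among the lists drawn in the plot of shares by list, genes known to respond to glucocorticoids had the largest share called higher. Of 26 tested, 16 were higher (61.5%) and 1 lower (3.85%), against 8.39% and 9.5% of all tested genes. The median was 1.49. Lists were chosen with earlier results of these data known, so this rank is a description and no test. Klf9, a repressor of the Krüppel family, stood at 36.1, 35.9 and 31.5 CPM fed and 217, 152 and 173 CPM fasted (2.39 ± 0.15; edgeR adjusted p = 2.2e-06). Fkbp5, a co-chaperone that restrains the glucocorticoid receptor, went from 50.1, 55.7 and 56 to 143, 195 and 152 CPM (1.60 ± 0.19). The replicates of each gene were tight in both groups. Per1, a clock gene with glucocorticoid response elements, rose by 1.97 ± 0.40, Klf15, a regulator of amino acid use, by 1.25 ± 0.20, Errfi1, an inhibitor of the epidermal growth factor receptor, by 1.37 ± 0.23, and Cebpb, a fasting transcription factor, by 1.27 ± 0.17. Gadd45g, of the growth arrest family, had 2.17 ± 0.57, a call lost without fed replicate 2 or 3 or fasted replicate 1, 2 or 3 (adjusted p up to 0.087). Gadd45a of the same family went the other way, from 29.8, 37.4 and 22.2 to 4.41, 6.24 and 3.06 CPM (-2.70 ± 0.37). Nr3c1, the receptor, had -0.00 ± 0.11, and Tsc22d3 and Dusp1, 2 well-known targets, had 0.18 ± 0.27 and -0.02 ± 0.32; none of the 3 was called. Of the 26 tested members 17 stand in another list as well, among them 11 of the 16 called higher and the 1 called lower, so this count and those of the other lists share genes.

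**Figure D2:**
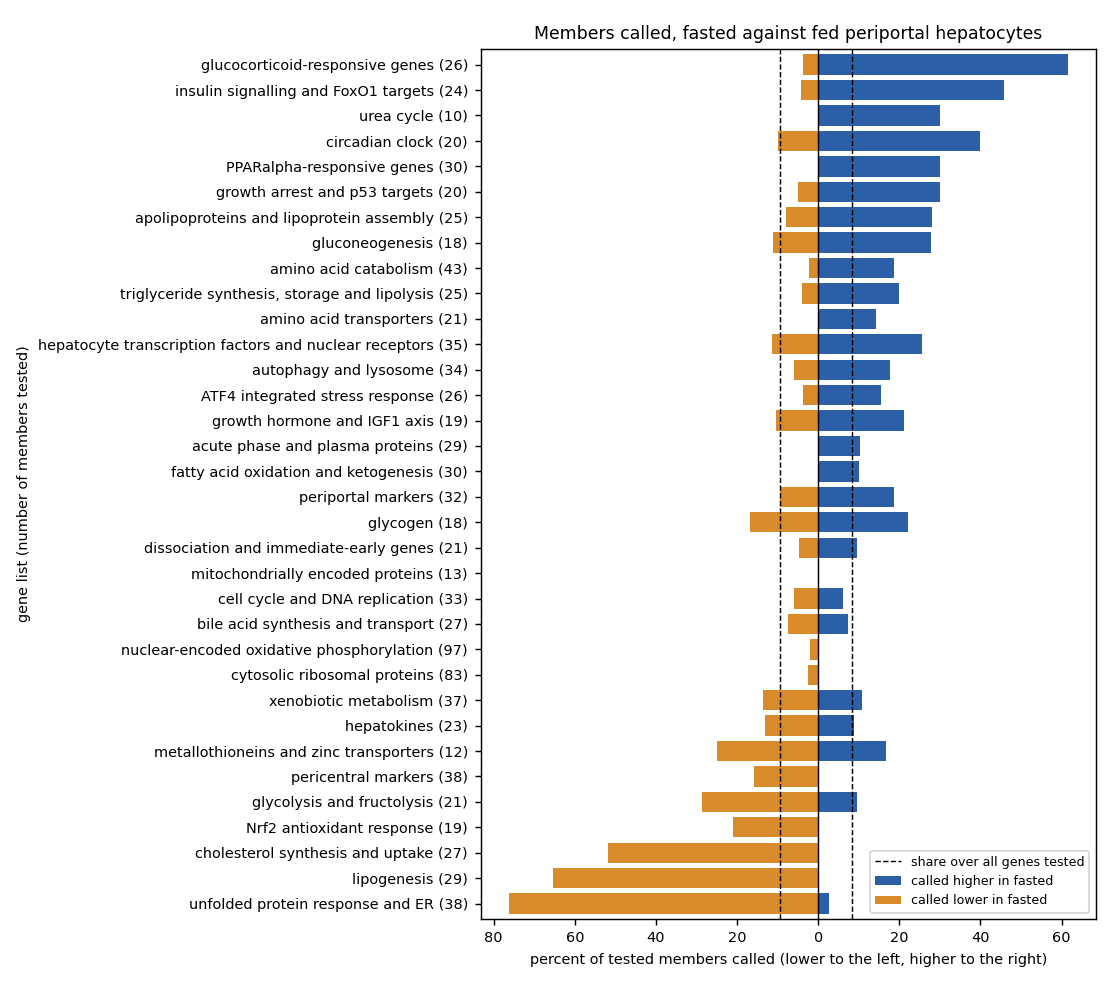
Percent of the tested members of 34 gene lists called higher (blue, to the right) or lower (orange, to the left) in fasted periportal hepatocytes, with the number tested in brackets; dashed lines give the shares over all genes tested, 8.39% higher and 9.5% lower. Glucocorticoid-responsive genes stand at the top and genes of the unfolded protein response at the bottom. The lists were chosen with earlier results of these data known, so their order is a description.

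Some growth arrest genes rose and the cyclin Ccnd1 fell. The median of 20 tested was 0.55, from 0.29 without fasted replicate 1 to 0.65 without fed replicate 2. Against 9.5% and 8.39% of all tested genes, 1 was lower (5%) and 6 were higher (30%). Beside Cdkn1a and Gadd45g they were Btg1, an antiproliferative gene (1.21 ± 0.17), Sesn2, a restraint on mTORC1 (1.46 ± 0.17), Ccng2 and Trp53inp1, a p53-induced autophagy protein (1.80 ± 0.32). Ccnd1, cyclin D1, went from 73.2, 95.9 and 57.3 to 8.48, 16.7 and 4.74 CPM (-2.92 ± 0.50), and E2f2, a cell cycle factor, fell by 2.50 ± 0.40. The proliferation marker Mki67 had -0.32 ± 0.44 and was not called. Of 33 cell cycle genes, 2 were higher and 2 lower, or 6.06% in each direction, under the 8.39% and 9.5% of all tested genes. In that list 25 had log2 fold changes above 0 (median 0.205, from 0.175 without fasted replicate 1 to 0.347 without fed replicate 2). Cdt1 (1.82 ± 0.55) lost its call without fed pericentral replicate 3, fed replicate 1 or 2, fasted pericentral replicate 2 or fasted replicate 1, 2 or 3 (adjusted p up to 0.13). The higher count of the cell cycle list was 1 without fed pericentral replicate 3, fed replicate 1 or 2, fasted pericentral replicate 2 or fasted replicate 1, 2 or 3. The lower count of the growth arrest list was 2 without fasted replicate 1.

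Zinc transporters were lower where they were called. Slc30a10, an exporter of manganese and zinc, went from 80.9, 133 and 132 to 25.4, 39 and 40.2 CPM (-1.72 ± 0.25). Slc30a5, a zinc transporter of the secretory pathway, had -0.49 ± 0.12, a call lost without fed replicate 1 or fasted replicate 1 (adjusted p up to 0.058). Mtf1, the zinc sensor that turns metallothioneins on, had -0.60 ± 0.17, opposite in sign to Mt1 and Mt2, and lost its call without fed replicate 1, 2 or 3 or fasted replicate 1 or 2 (adjusted p up to 0.12). Of 12 tested metallothionein and zinc genes, 2 were higher (16.7%) and 3 lower (25%), against 8.39% and 9.5% of all tested genes. Of these 12, 6 had log2 fold changes above 0 and 6 below. The median was -0.09, from -0.15 without fasted replicate 2 to -0.02 without fasted replicate 1. The lower count was 1 without fed replicate 1 or fasted replicate 1.

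Of 29 tested lipogenesis genes, 19 were lower (65.5%, against 9.5% of all tested genes) and 0 higher. Their median log2 fold change was -1.91. Fasn, fatty acid synthase, stood at 851, 2039 and 2565 CPM fed and 64.5, 158 and 61.8 CPM fasted (-4.26 ± 0.49; edgeR adjusted p = 0.00044). Acly, which makes cytosolic acetyl-CoA from citrate, went from 1256, 4219 and 5631 to 269.7, 336 and 374 CPM (-3.50 ± 0.52), and Elovl6, which elongates palmitate, from 670, 2619 and 2364 to 40.2, 94 and 76.5 CPM (-4.74 ± 0.58). In all 3 the fed replicate 1 was far below either other fed library, and no fed library overlapped the fasted ones. Pnpla3, a lipid droplet enzyme under sterol regulatory element-binding protein control, had 13.5, 80.4 and 85 CPM fed and 0.301, 1.84 and 1.28 CPM fasted (-5.67 ± 0.96). Srebf1, the gene of that protein, went from 777, 1277 and 1008 to 199, 194 and 101 CPM (-2.63 ± 0.34), and Mid1ip1, an activator of acetyl-CoA carboxylase, from 310.1, 331 and 312 to 59.9, 44.5 and 20.1 CPM (-2.94 ± 0.36), with little spread among fed libraries. Acaca, acetyl-CoA carboxylase, fell by 2.61 ± 0.37, Aacs, acetoacetyl-CoA synthetase, by 3.52 ± 0.44, Thrsp, a lipogenic nuclear protein, by 2.55 ± 0.54, and Me1, malic enzyme, by 1.96 ± 0.43.

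Some lipogenic genes did not pass or were unstable. Scd1, stearoyl-CoA desaturase, stood at 4787, 15520 and 13390 CPM fed and 1471, 7198 and 9982 CPM fasted (-0.85 ± 0.77; edgeR adjusted p = 0.5), and the groups overlapped. Acacb, the mitochondrial carboxylase whose product blocks fatty acid entry, had 81.7, 484 and 474 CPM fed and 51.5, 106 and 81.6 CPM fasted, so that fed replicate 1 fell within the fasted range; its call was lost without fed pericentral replicate 2, fed replicate 2 or 3, fasted pericentral replicate 2 or 3 or fasted replicate 1, 2 or 3 (adjusted p up to 0.13). G6pdx, of the pentose phosphate path that makes NADPH, had -2.09 ± 0.60, a call lost without fed pericentral replicate 2, fed replicate 2 or 3, fasted pericentral replicate 3 or fasted replicate 1, 2 or 3 (adjusted p up to 0.13). The count of lipogenesis genes called lower was 12 without fed replicate 2 or fasted replicate 1, 12 as well with periportal libraries alone, and 20 without fed replicate 1.

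Of 27 tested genes of cholesterol synthesis and uptake, 14 were lower, 0 were higher and 13 were not called (median -0.72). The share called lower was 51.9%, against 9.5% of all tested genes. Insig1, the sterol-sensing anchor of the SREBP escort, went from 968, 1316 and 1502 to 506, 479 and 334 CPM (-1.52 ± 0.18; edgeR adjusted p = 0.00027). Insig2, which is not in the list and is known to be the form held down by insulin, rose from 88, 84 and 96.2 to 176, 192 and 239 CPM (1.18 ± 0.22). The paired anchors therefore moved in opposite directions. Sqle, squalene epoxidase, went from 136, 286 and 378 to 85.7, 93.3 and 43.8 CPM (-1.84 ± 0.39), and Sc5d, a late desaturase, from 743, 1029 and 1032 to 250.1, 408 and 224 CPM (-1.67 ± 0.21). Hmgcs1, Msmo1 and Fdft1, also of the pathway, had -0.37 ± 0.29, 0.13 ± 0.43 and -0.21 ± 0.24 and were not called. Srebf2, the main sterol-responsive factor, had 0.15 ± 0.17 and was not called. The lower count was 9 without fed replicate 3; fasted replicate 3, the lowest of its group for most of these genes, left a count within 1.5 times the main one when removed.

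**Figure D3:**
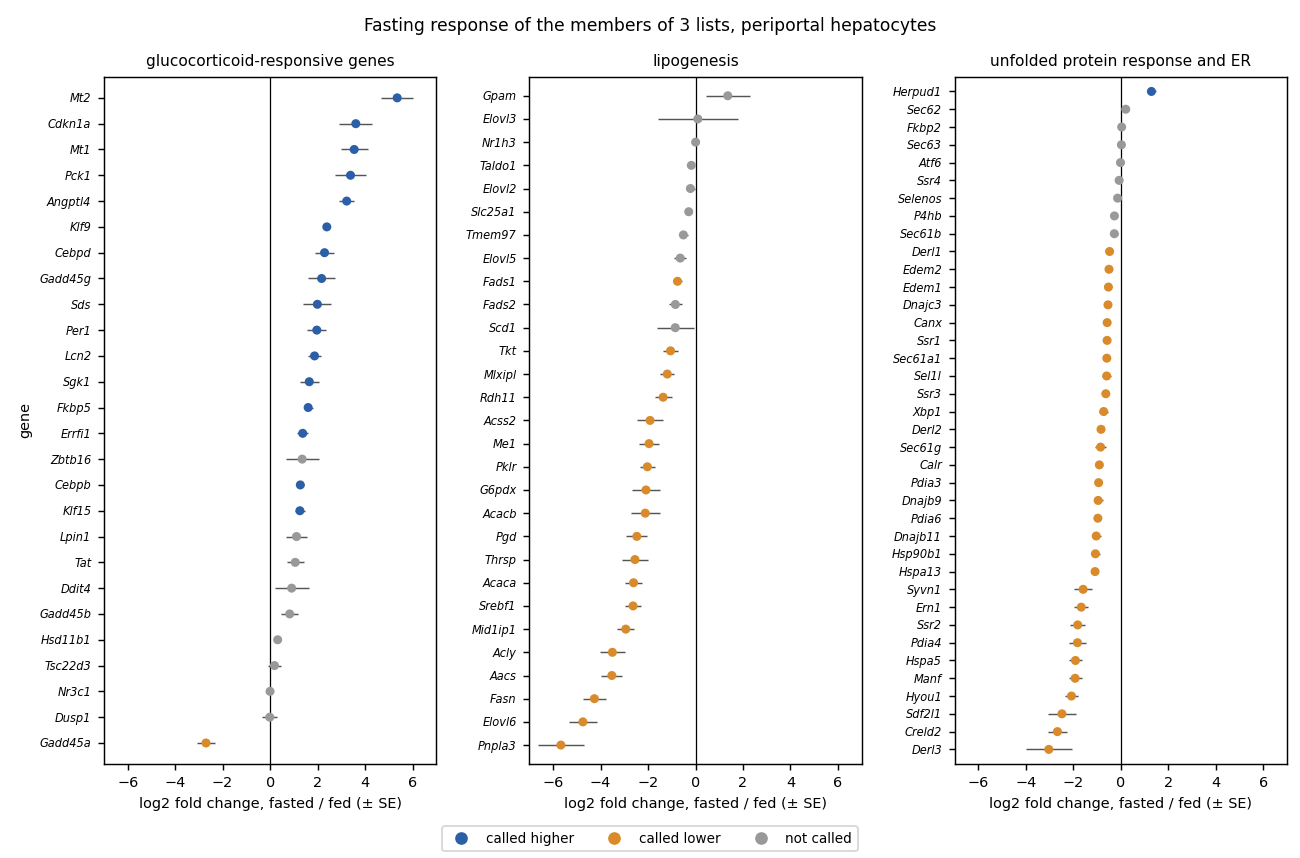
Log2 fold change, fasted over fed, with its standard error for every tested member of 3 lists in periportal hepatocytes; blue points were called higher, orange points lower and grey points were not called. Gadd45a among glucocorticoid-responsive genes and Herpud1 among genes of the unfolded protein response lie on the side opposite to the called members of their lists.

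Few genes of fatty acid oxidation and ketogenesis were called by edgeR. Cpt1a, the gate of fatty acid entry into mitochondria, rose from 281, 289.8 and 236 to 491, 678 and 586 CPM (1.12 ± 0.14; edgeR adjusted p = 0.00034). Eci2 and Crat, an isomerase and carnitine acetyltransferase, had 0.67 ± 0.22 and 1.17 ± 0.31, calls lost without fed pericentral replicate 2 or 3, fed replicate 2 or 3, fasted pericentral replicate 2 or 3 or fasted replicate 1, 2 or 3 (adjusted p up to 0.13) and without fed replicate 2 or 3 or fasted replicate 2 or 3 (adjusted p up to 0.089). Of 30 tested, 3 were higher and 0 lower, against 8.39% and 9.5% of all tested genes, and 27 had log2 fold changes above 0 (median 0.30, from 0.15 without fed replicate 3 to 0.52 without fed replicate 1). DESeq2's Wald test called 9 of the 30 higher, against 1281 of 12074 genes with a value; 1 was called without a filter and 1 with periportal libraries alone. The higher count was 1 without fed replicate 2 or 3 or fasted replicate 2 or 3 and 5 without fasted replicate 1 and 13 without fed replicate 1, and the lower count 1 without fed replicate 3.

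Genes known to respond to the fatty acid sensor PPAR alpha held both firm rises and genes without a call. Angptl4, which inhibits lipoprotein lipase, went from 18.1, 29 and 16.9 to 165, 236 and 198 CPM (3.23 ± 0.32; edgeR adjusted p = 0.00018). Creb3l3, a liver transcription factor of fasting, rose by 0.54 ± 0.10, and Txnip, which restrains glucose uptake, by 1.48 ± 0.30. Ppara itself had 0.70 ± 0.22 and lost its call without fed pericentral replicate 1, 2 or 3, fed replicate 2 or 3, fasted pericentral replicate 1, 2 or 3 or fasted replicate 2 or 3 (adjusted p up to 0.16). Cyp4a14, a fatty acid omega-hydroxylase, stood at 2796, 479 and 738 CPM fed and 4021, 3204 and 3150 CPM fasted (1.37 ± 0.60; edgeR adjusted p = 0.15), and Cyp4a10 at 1759, 327 and 330.5 and 1727, 1536 and 769 CPM (0.74 ± 0.67). Acot1, an acyl-CoA thioesterase, had 28.7, 5.72 and 3.54 CPM fed and 42.2, 35.9 and 55.2 CPM fasted (1.80 ± 0.70). In all 3, fed replicate 1 was several-fold above the other fed libraries, and all 3 were called when it was left out. Close relatives in the Cyp4a and Acot families share reads, and their single values are uncertain. Fgf21, a hormone of fasting and of sugar intake, was lower in fasted libraries on average, at 3.75, 7.65 and 8.11 against 1, 4 and 3.19 CPM (-1.24 ± 0.83), and was not called. Of 30 tested, 9 were higher (30%, against 8.39% of all tested genes) and 0 lower (median 0.68). The higher count was 4 without fed replicate 2 and 5 without fed replicate 3 or fasted replicate 2. It was 17 without fed replicate 1, and 14 by DESeq2's Wald test.

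**Figure D4:**
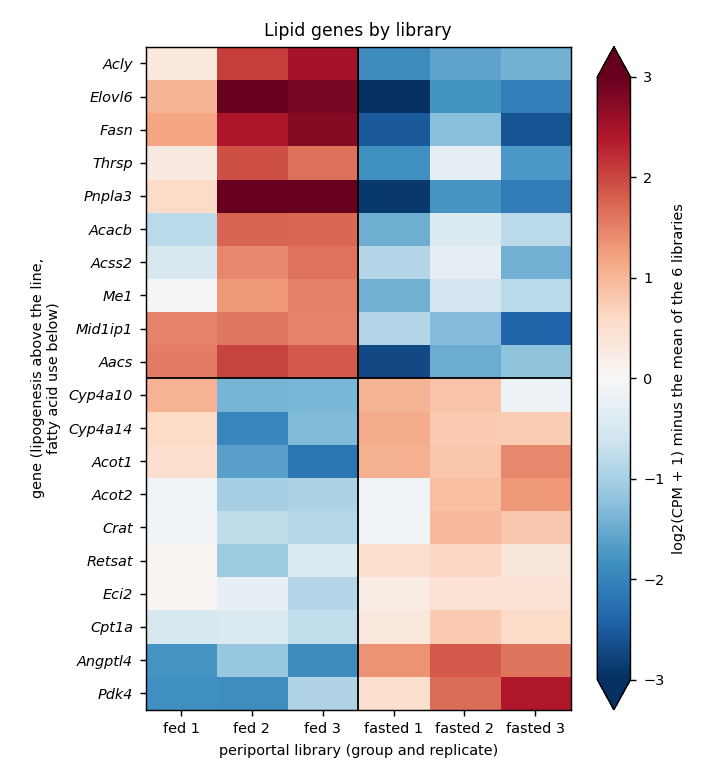
Log2(CPM + 1) of 20 lipid genes in each periportal library after subtracting the gene's mean over the 6 libraries; colours are clipped at 3 in either direction. Fed replicate 1 is paler than the other fed libraries for most lipogenic genes above the line. For Cyp4a10, Cyp4a14 and Acot1 below the line it is red like fasted replicates 1 and 2.

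Genes of lipolysis and lipid droplets were among the triglyceride genes that rose. Pnpla2, adipose triglyceride lipase, stood at 38.5, 41.3 and 47.3 CPM fed and 113, 119.5 and 104 CPM fasted (1.41 ± 0.11; edgeR adjusted p = 1.6e-05), a narrow spread in each group. Lpin2, a phosphatidate phosphatase, rose by 1.64 ± 0.31, Plin5, a droplet coat that binds mitochondria, by 1.31 ± 0.28, and Agpat3 by 0.53 ± 0.11. Plin2, another droplet coat, had 0.67 ± 0.32, and Lpin1 had 1.11 ± 0.45; neither was called. Ces1f, a carboxylesterase with close relatives, fell by 0.85 ± 0.17. In all 5 of 25 tested were higher (20%) and 1 lower (4%), against 8.39% and 9.5% of all tested genes. The list's median was 0.14, from -0.00 without fasted replicate 2 to 0.26 without fed replicate 3. Its lower count was 2 without fed pericentral replicate 3 and 3 without fed replicate 1.

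Several genes of lipoprotein handling rose while Angptl8 and Abca1, the cholesterol exporter (-0.92 ± 0.14), fell. Lcat, which esterifies plasma cholesterol, rose by 0.57 ± 0.13, Scarb1, the HDL receptor, by 0.78 ± 0.17, and Apoa5, which promotes triglyceride clearance, by 0.76 ± 0.18. Of 25 tested, 7 were higher (28%) and 2 lower (8%), against 8.39% and 9.5% of all tested genes. The list's median was 0.23, from 0.19 without fasted replicate 2 to 0.38 without fed replicate 1. Its higher count was 3 without fasted replicate 2. Angptl4 and Angptl8, which act on the same lipase system, thus changed by 3.23 and -3.96 on the log2 scale. Of 27 bile acid genes 2 were higher and 2 lower, or 7.41% in each direction, near the 8.39% and 9.5% of all tested genes (median 0.00, from -0.05 without fasted replicate 1 to 0.09 without fasted replicate 3). Cyp7a1, the rate-limiting enzyme of bile acid synthesis, had 149, 21.9 and 50.9 CPM fed and 36.7, 38.3 and 2.28 CPM fasted (-1.52 ± 0.90), a spread wider than the difference. Acox2, of side chain shortening, rose by 0.87 ± 0.19. Counts for bile acid genes called higher were 1 without fed replicate 2 or 3 or fasted replicate 2, and for those called lower 0 without fed replicate 3 or fasted replicate 1 or 3 and 1 without fed pericentral replicate 1, 2 or 3 or fed replicate 1 or 2.

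The endoplasmic reticulum (ER) list had the largest share of its members called of the lists in the plot of shares by list. This rank too is a description, as the lists were chosen with earlier results of these data known. Of 38 tested genes, 29 were lower (76.3%) and 1 higher (2.63%), against 9.5% and 8.39% of all tested genes. The list's median was -0.78, and between 23 and 28 members were lower when any 1 library was left out. Hspa5, the ER chaperone BiP, stood at 3077, 1246 and 1931 CPM fed and 639.8, 525 and 497 CPM fasted (-1.91 ± 0.28; edgeR adjusted p = 0.00091). Fed replicate 1 was the highest of its group for Hspa5 and for 28 of the 38 genes, and no fasted library reached the lowest fed one. Manf, a secreted factor of ER stress, went from 413, 200.2 and 250.1 to 96.5, 63.7 and 66.8 CPM (-1.93 ± 0.27), Calr, calreticulin, from 1050, 838 and 1010 to 481, 571 and 496 CPM (-0.91 ± 0.13), and Hspa13 from 87.7, 77.8 and 64 to 33.7, 32.9 and 41.4 CPM (-1.09 ± 0.14). Hyou1 and Creld2, which assist folding, had -2.08 ± 0.28 and -2.67 ± 0.38.

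The falls reached several steps of the secretory pathway. At the translocation channel, Sec61a1 fell by 0.59 ± 0.10 and the signal sequence receptor subunits Ssr1 and Ssr3 by 0.58 ± 0.11 and 0.63 ± 0.12. Among lectin chaperones Canx fell by 0.58 ± 0.11, and among protein disulfide isomerases Pdia3, Pdia4 and Pdia6 by 0.94 ± 0.15, 1.83 ± 0.35 and 0.97 ± 0.14. In degradation, Derl1 and Derl2 fell by 0.47 ± 0.10 and 0.83 ± 0.12, and Edem1 by 0.52 ± 0.10. Ern1, the sensor IRE1, fell by 1.67 ± 0.29. Xbp1, the factor IRE1 activates by splicing, had 245, 203 and 160 CPM fed and 136, 122 and 110.5 CPM fasted (-0.72 ± 0.19), a call lost without fed replicate 1 or 2 or fasted replicate 2 or 3 (adjusted p up to 0.072); gene-level counts do not tell its spliced form. Herpud1, a part of the degradation complex, was the 1 member called higher, from 273, 269 and 165 to 556, 551 and 618 CPM (1.29 ± 0.20). The other 8 members were not called.

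The ATF4 list, of amino acid shortage and translational stress, did not share the direction of the ER list. Sesn2 and Cebpb rose, as given, and Chac1, a glutathione-degrading enzyme, had 2.47 ± 0.58, a call lost without fed replicate 3 (adjusted p up to 0.051). Atf4 itself, Asns, asparagine synthetase, and Ddit3, the factor CHOP, had -0.15 ± 0.13, -0.42 ± 0.36 and -0.03 ± 0.25 and were not called; the sign for Ddit3 turned without fed replicate 1 or 2 or fasted replicate 2. So 4 of 26 were higher (15.4%) and 1 lower (3.85%), against 8.39% and 9.5% of all tested genes. The list's median was 0.10, from -0.03 without fasted replicate 3 to 0.17 without fasted replicate 2. Its lower count was 2 without fasted replicate 3. Among 34 autophagy and lysosome genes 6 were higher (17.6%) and 2 lower (5.88%), beside the same shares of all tested genes. Their median was 0.10, from 0.06 without fed replicate 3 to 0.17 without fed replicate 1. Atg2a, a lipid transfer protein of the growing autophagosome, rose by 0.86 ± 0.12, Bnip3, a mitophagy receptor, by 0.73 ± 0.13, and Map1lc3b, of the membrane mark LC3, by 0.53 ± 0.10. Sqstm1, the cargo receptor p62, went from 451, 558 and 507 to 366, 296 and 346 CPM (-0.59 ± 0.12). Ulk1, the starting kinase, had -0.20 ± 0.19 and was not called. Tfe3, a regulator of lysosome genes, had -0.53 ± 0.17, a call lost without fed pericentral replicate 1, 2 or 3, fed replicate 1 or 3, fasted pericentral replicate 3 or fasted replicate 1 or 2 (adjusted p up to 0.18), and the lower count of the list was 1 without fed pericentral replicate 1, 2 or 3, fasted pericentral replicate 3 or fasted replicate 1 or 2.

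Clock genes were called in both directions. Per1 rose and Per2 fell, from 55.2, 74.8 and 109.6 to 25.3, 30.7 and 29.9 CPM (-1.48 ± 0.24; edgeR adjusted p = 0.0018). The core factors Arntl and Clock had -0.56 ± 0.44 and -0.45 ± 0.51 and were not called. Nr1d1 and Dbp, output genes with steep daily cycles, had 13.5, 7.04 and 4.99 and 36.1, 13.2 and 7.07 CPM fed and 19.7, 19.7 and 25.7 and 44.6, 42 and 43.4 CPM fasted; neither was called, and fed replicate 1 was the highest fed library for both. Ciart, a clock repressor, had 2.12 ± 0.53, a call lost without fed replicate 2 or 3 or fasted replicate 1 (adjusted p up to 0.07), and Rora had 0.59 ± 0.17, a call lost without fed replicate 2 or 3 or fasted replicate 1 or 3 (adjusted p up to 0.091). In all 8 of 20 were higher (40%) and 2 lower (10%), against 8.39% and 9.5% of all tested genes (list median 0.37). Genes of the clock called higher were 1 without fed replicate 2 or 3 or fasted replicate 1 and 2 without fasted replicate 3 and 4 without fed pericentral replicate 2 and 5 without fasted pericentral replicate 2 or fasted replicate 2, and 4 without a filter. A difference in time of day between the groups was not tested.

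Among transcription factors and nuclear receptors of hepatocytes 9 of 35 were higher (25.7%) and 4 lower (11.4%), against 8.39% and 9.5% of all tested genes. The list's median was 0.08, from 0.02 without fed replicate 3 to 0.20 without fed replicate 1. Ppargc1b, a coactivator of lipid and mitochondrial genes, went from 4.22, 5.68 and 5.93 to 13.6, 12.7 and 21.8 CPM (1.60 ± 0.28), and Nr1i2, the xenobiotic receptor PXR, from 59.3, 90 and 59.2 to 120.3, 147 and 154 CPM (1.02 ± 0.20). Foxa1, a pioneer factor, fell by 1.02 ± 0.21. Foxa2 and Onecut1 had -0.87 ± 0.22 and -0.90 ± 0.27, calls lost without fed replicate 1 or 3 or fasted replicate 1 or 3 (adjusted p up to 0.067) and without fed pericentral replicate 1, fed replicate 1 or 2, fasted pericentral replicate 2 or fasted replicate 1 or 3 (adjusted p up to 0.13). Hnf4a, which sets hepatocyte identity, had 0.19 ± 0.11 and was not called. The lower count was 1 without fasted replicate 3 and 2 without fed pericentral replicate 1, fed replicate 1 or 2, fasted pericentral replicate 2 or fasted replicate 1.

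Of the growth hormone axis, Igf1, its main circulating product, had 501, 618 and 406 CPM fed and 563, 612 and 560.2 CPM fasted (0.19 ± 0.16; edgeR adjusted p = 0.47), and the groups overlapped. Cux2, a female-biased repressor in liver, rose by 0.95 ± 0.16. Igfals, which carries IGF1 in plasma, had -0.56 ± 0.13, a call lost without fed replicate 2 or fasted replicate 1 (adjusted p up to 0.067), and Socs2, a feedback inhibitor, had 0.83 ± 0.23, a call lost without fed replicate 2 or 3 or fasted replicate 1 or 2 (adjusted p up to 0.088). In the list 4 of 19 were higher (21.1%) and 2 lower (10.5%), against 8.39% and 9.5% of all tested genes. The list's median was 0.19, from 0.00 without fasted replicate 1 to 0.29 without fed replicate 2. Its higher count was 2 without fed replicate 3, and its lower count 0 without fed replicate 2 or fasted replicate 1. The lower count was 1 without fed pericentral replicate 1, fed replicate 1, fasted pericentral replicate 2 or fasted replicate 3. Of 23 secreted hepatokines 2 were higher, Angptl4 and Igfbp1, and 3 lower, Angptl8, Manf and Inhbc, an activin subunit (-1.30 ± 0.20). Those shares, 8.7% and 13.0%, were near the 8.39% and 9.5% of all tested genes. The lower count was 5 without fasted replicate 2. The acute phase list had 3 of 29 higher and 0 lower (median 0.15; 5 without fasted pericentral replicate 1 for the higher count). Its share called higher, 10.3%, was near the 8.39% of all tested genes. Lcn2, an iron-binding acute phase protein, went from 7.55, 4.18 and 5.41 to 15.1, 24.2 and 23.4 CPM (1.87 ± 0.29), and Lbp, which binds endotoxin, rose by 0.96 ± 0.15. Alb, albumin, and Saa1 had 0.22 ± 0.12 and -0.37 ± 0.34 and were not called. Hp, haptoglobin, had 0.71 ± 0.18, a call lost without fed replicate 2 or 3 or fasted replicate 1 (adjusted p up to 0.069).

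Drug metabolism genes were called in both directions, 4 of 37 higher and 5 lower (median -0.28, from -0.44 without fed replicate 2 to -0.09 without fed replicate 1). Those shares, 10.8% and 13.5%, were near the 8.39% and 9.5% of all tested genes. Por, the reductase that feeds electrons to all microsomal cytochromes P450, went from 306, 419 and 422 to 948, 1021 and 869.8 CPM (1.31 ± 0.16; edgeR adjusted p = 0.00032), and Cyp3a25 rose by 0.91 ± 0.16. Cyp1a2 went from 61.5, 49.9 and 79.7 to 15.6, 14.6 and 18.6 CPM (-1.97 ± 0.39), Cyp2c50 fell by 1.02 ± 0.21 and Sult2a8, a sulfotransferase, by 1.52 ± 0.33. Cyp2c and Cyp3a members have close paralogs and are uncertain. The higher count was 7 without fasted pericentral replicate 1, and the lower count 3 without fed replicate 1 or 3 or fasted replicate 3. Of 19 genes of the antioxidant factor Nrf2 4 were lower and 0 higher (median -0.42): Srxn1, sulfiredoxin (-0.87 ± 0.25, a call lost without fed replicate 1 or 3 or fasted replicate 1, 2 or 3 (adjusted p up to 0.11)), G6pdx and Me1, which are lipogenic as well, and Abcc3. The share of Nrf2 genes called lower was 21.1%, against 9.5% of all tested genes. Their lower count was 1 without fed replicate 3 or fasted replicate 1 or 3 and 2 without fed pericentral replicate 2, fed replicate 1 or fasted replicate 2.

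Some zone markers were called within the periportal libraries. Of 38 tested pericentral markers 6 were lower (15.8%, against 9.5% of all tested genes) and 0 higher. Of these markers 35 had log2 fold changes below 0, and the median was -0.70 against -0.17 in pericentral hepatocytes. Akr1c6, a steroid dehydrogenase, went from 258, 202 and 176 to 80.4, 84.2 and 48 CPM (-1.58 ± 0.23). Cyp2e1, an ethanol-oxidising cytochrome, stood at 1254, 415 and 513 CPM fed and 724, 754 and 120.3 CPM fasted (-0.45 ± 0.60), and Glul at 102, 173 and 145 and 79.8, 152 and 49.3 CPM (-0.58 ± 0.82). Neither was called, fasted replicate 3 was the lowest library for both, and without it the value for Cyp2e1 was 0.03. Summed over the list, pericentral markers stood at 8750 to 13100 CPM in fed and 7340 to 8970 CPM in fasted libraries, so the groups overlapped. The share of cells of the other zone in these libraries was not tested. Periportal markers had 6 of 32 higher (18.8%) and 3 lower (9.38%), against 8.39% and 9.5% of all tested genes (list median 0.29). Cdh1, the adhesion protein E-cadherin, went from 65.3, 131 and 145 to 56.8, 38.6 and 41.5 CPM (-1.32 ± 0.26), and Ifitm3, a membrane protein of antiviral defence, from 191, 255 and 206 to 124, 129 and 119.7 CPM (-0.81 ± 0.12). The higher count was 2 without fed replicate 1 and 3 without fed replicate 2 or fasted replicate 3 and 10 without fasted pericentral replicate 1.

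Few ribosomal and respiratory genes were called. Of the ribosomal and the nuclear-encoded respiratory genes 2.41% and 2.06% were lower, against 9.5% of all tested genes. Of 83 cytosolic ribosomal protein genes 2 were lower and 0 higher (median 0.16, from -0.03 without fasted replicate 1 to 0.26 without fasted replicate 2). Of 97 nuclear-encoded genes of the respiratory chain and ATP synthase 2 were lower and 0 higher (median 0.08, from 0.01 without fasted replicate 1 to 0.14 without fasted replicate 3). None of the 13 protein genes of the mitochondrial genome was called, though all 13 had values above 0 (median 0.21) and 7 were higher with no overlap between groups, as were 16.8% of all tested genes. The mitochondrial genes called higher were 1 without fasted pericentral replicate 1 or fasted replicate 3, and the ribosomal genes called lower 1 without fed replicate 1, 2 or 3 or fasted replicate 1 or 2. The nuclear genes called higher were 1 without fasted pericentral replicate 1 and 2 without fasted replicate 2 and 3 without fasted replicate 3, and those called lower 1 without fed replicate 2 or 3 or fasted replicate 1. Dissociation of tissue can switch on immediate-early genes. Against 8.39% and 9.5% of all tested genes, 2 of 21 on their list were higher (9.52%) and 1 lower (4.76%). One of them, Nr4a1, stood at 0.298, 0.657 and 0.676 CPM fed and 81, 0.615 and 36.5 CPM fasted, so its call rested on 2 libraries and was lost without fed pericentral replicate 1, 2 or 3, fed replicate 1, 2 or 3 or fasted replicate 1 or 3 (adjusted p up to 0.11). Klf6, a growth-related factor, rose from 3.75, 2.82 and 3.64 to 10.1, 5.76 and 13.7 CPM, and Dnajb1, a heat shock co-chaperone, had -0.68 ± 0.19, a call lost without fed replicate 1 or 2 or fasted replicate 1 or 2 (adjusted p up to 0.087). Higher counts for this list were 1 without fed pericentral replicate 1, 2 or 3, fed replicate 1, 2 or 3 or fasted replicate 1 or 3 and 4 without fasted replicate 2, and lower counts 0 without fed replicate 1 or 2 or fasted replicate 1 or 2 and 3 without fasted pericentral replicate 1 or 3. The summed level of its members was 512 to 606 CPM in fed and 446 to 848 CPM in fasted libraries.

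Acacb, Canx, Cdo1, Chac1, Creld2, Derl1, Edem1, Ern1, Errfi1, Foxo1, Hyou1, Insr, Mlxipl, Pcx, Pdia3, Pdia4, Pdia6, Plin5, Ppara, Ppp1r3g, Sec61a1, Ssr1, Ssr3, Trp53inp1 and Txnip are named here outside the naming rule, after their values were seen.

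The same contrast in pericentral hepatocytes called 21.4% of tested genes. Genes called higher in both zones numbered 764, which is 75.3% of those called higher in periportal and 56.8% of those in pericentral hepatocytes, and genes called lower in both numbered 780 (67.9% and 63.1%). Of the genes called in periportal hepatocytes, 1004 of 1014 higher and 1133 of 1148 lower ones had the same sign in pericentral hepatocytes. Across the 12086 genes the fold changes of both zones had a Pearson correlation of 0.66, a description across genes, which are not independent replicates. The zones share no library, but the labels do not say whether they share mice. A step shared by the fed libraries of both zones cannot be told apart from the feeding state here either. The difference of the fasting response between zones was called for 0% of tested genes by edgeR. At an unadjusted p under 0.05 there were 465, the smallest adjusted p was 0.088, and DESeq2 called 11. No gene's response is described as particular to the periportal zone. Pck1 had 3.39 ± 0.67 in periportal and 5.14 ± 0.73 in pericentral hepatocytes (difference -1.76 ± 0.87), and Stbd1 -0.80 ± 0.17 and 0.14 ± 0.17 (difference -0.94 ± 0.24). Abcc3, a bile salt exporter, was the 1 gene called in opposite directions, at -0.51 ± 0.16 and 0.48 ± 0.16; the adjusted p of its difference was 0.997 by edgeR and 0.042 by DESeq2, and its periportal call was lost without fed pericentral replicate 1, 2 or 3, fed replicate 1 or 3 or fasted replicate 1 or 3 (adjusted p up to 0.16).

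**Figure D5:**
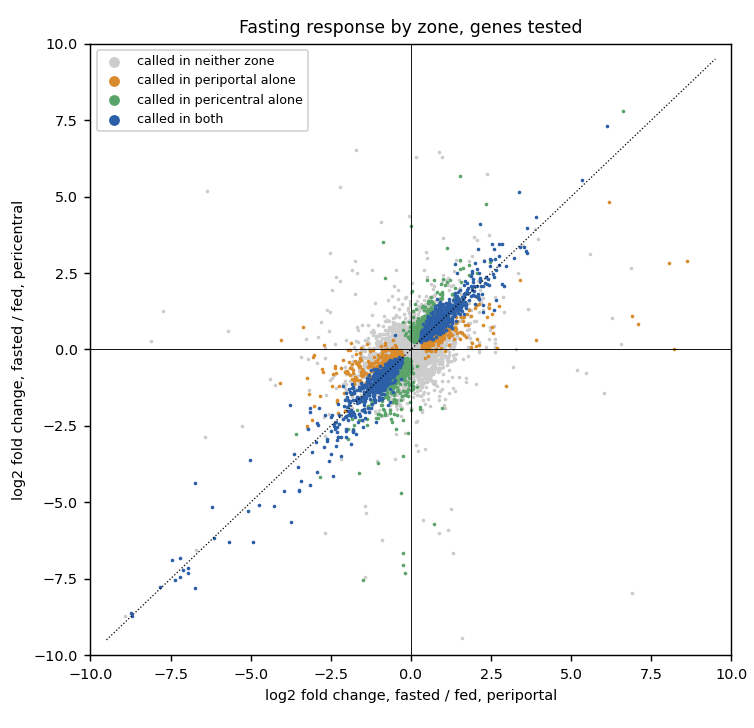
Log2 fold change, fasted over fed, of 12086 tested genes in periportal (horizontal) and pericentral (vertical) hepatocytes; colours give the zone in which edgeR called the gene and the dotted line marks equal change. The 764 genes called higher and 780 called lower in both zones lie along that line.

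Promoters of genes that the results turn on were read for short elements: the E-box CACGTG of clock and sterol factors, the cAMP element TGACGTCA, the FoxO element GTAAACA and its reverse complement, and 3 more, for ATF4, sterols and a nuclear receptor repeat, that are not described. The 250 bases before the start in RefSeq are shown 5′ to 3′ on the strand of the gene, for the 4 called anchor genes with an element that had the smallest p. Capitals mark the element. Fkbp5 and Irs2, which rose, and Insig1, which fell, hold an E-box, and Elovl6, which fell, a FoxO element. On GRCm38.p6 they lie at chr17:28486150-28486399 on the minus strand, chr8:11008930-11009179 on the minus strand, chr5:28071162-28071411 on the plus strand and chr3:129532136-129532385 on the plus strand, in that order.
Fkbp5: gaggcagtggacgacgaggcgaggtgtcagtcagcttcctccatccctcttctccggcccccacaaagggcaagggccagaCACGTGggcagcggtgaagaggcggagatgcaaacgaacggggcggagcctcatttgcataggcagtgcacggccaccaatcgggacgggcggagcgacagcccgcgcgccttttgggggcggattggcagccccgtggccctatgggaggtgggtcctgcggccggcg
Irs2: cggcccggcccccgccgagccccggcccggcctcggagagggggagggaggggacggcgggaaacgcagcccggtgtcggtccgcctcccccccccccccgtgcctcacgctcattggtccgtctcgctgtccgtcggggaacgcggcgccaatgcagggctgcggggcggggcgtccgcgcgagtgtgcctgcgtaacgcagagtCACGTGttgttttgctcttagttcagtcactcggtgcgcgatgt
Insig1: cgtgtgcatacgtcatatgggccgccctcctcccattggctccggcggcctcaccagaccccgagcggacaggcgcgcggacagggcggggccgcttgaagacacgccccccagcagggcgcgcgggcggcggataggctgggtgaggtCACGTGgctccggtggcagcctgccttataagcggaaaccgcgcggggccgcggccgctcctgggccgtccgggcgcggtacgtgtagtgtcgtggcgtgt
Elovl6: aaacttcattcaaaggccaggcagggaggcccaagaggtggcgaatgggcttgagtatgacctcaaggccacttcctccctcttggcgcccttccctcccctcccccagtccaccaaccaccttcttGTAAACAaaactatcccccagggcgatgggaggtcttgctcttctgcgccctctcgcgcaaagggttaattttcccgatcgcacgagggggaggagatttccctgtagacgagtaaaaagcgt

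Elements were found 169, 44 and 101 bases before the start in Fkbp5, Irs2 and Insig1, and 123 bases before it in Elovl6. Of 12086 tested genes 9359 matched a promoter, and 9.8% of these hold the E-box on either strand, against 12.1% of genes called higher and 10.2% of those called lower. A gene counted where any of its starts held the element. Over all promoters of the reference, counted 1 per start, 6.02% hold the E-box. In the glucocorticoid list 7 of 21 matched genes (33.3%) hold it: Dusp1, Fkbp5, Gadd45b, Gadd45g, Klf15, Per1 and Sgk1. The other lists read also stood above 9.8%. Shares were 31.2% for clock, 26.3% for cholesterol, 20% for insulin and FoxO1, 19.4% for ER, 17.4% for PPAR alpha and 15.4% for lipogenesis genes. No list was tested for a motif, each holds few genes, and the number of starts per gene was not taken into account. The FoxO element is in 2.82% of tested genes, 3.58% of those higher and 2.59% of those lower, and the cAMP element in 3.03%, 4.08% and 2.59%. Of 20 matched genes of the insulin and FoxO1 list, 1 holds the FoxO element. Shares of called genes were thus near those of all tested genes. A match is a run of letters in this window, and binding at it was not measured.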

How the data were processed

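Total RNA of the 12 libraries was made into libraries with the NEBNext Ultra kit, per the labels' protocols; the kit is unstranded, so reads of overlapping genes on opposite strands cannot be told apart. The authors deposited 1 table of estimated counts per gene, made with kallisto 0.46.0 and mm10 per the submitters' processing notes; how transcripts were summed to genes was not given in the sources used here. Of 28030 gene identifiers, 27645 matched the GRCm38 gene annotation and 385 did not. Estimated counts were rounded and fitted with edgeR 4.0.16 in R 4.3.3 (filterByExpr, TMM scaling, robust quasi-likelihood test, 4 group means over all 12 libraries, Benjamini-Hochberg adjustment over 12086 genes, call at adjusted p under 0.05). The sharing of one spread by both zones gives 8 residual degrees of freedom. Levels in CPM, counts scaled to a common library size, use TMM library sizes, except summed marker levels, which use all counts. The method was tested on simulated data with 200 genes changed in the fasted periportal group alone. Of genes changed 1.5-, 2- and 4-fold, 25.4%, 61.2% and 86.4% were recovered, and 4 unchanged genes were called. In the real data 17.9% of tested genes were called, a larger share than was changed here. Simulated counts also varied independently from gene to gene, without shifts of many genes in 1 library such as those of fed replicate 1. These rates therefore need not carry over. Alternatives used DESeq2 1.42.0 and other scalings, filters and sets of libraries.

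Named genes are the 12 highest and 12 lowest fold changes of called genes that did not overlap and averaged 5 CPM or more, without predicted models and pseudogenes; the 5 largest rises and falls in CPM; anchor genes, called or not; and the called members of each list with the smallest p, 3 at most in either direction. The genes and lists were chosen with earlier results of these data known. Some genes that the rule selects are not reported here. Promoters are from RefSeq GRCm38.p6.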

Additional observations from a re-analysis of the deposited data

How the results depend on the processing

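When any 1 library was left out, the fits called 1405 to 2414 periportal genes (663 to 1143 higher, 738 to 1271 lower): 1405 without fed replicate 2 (663 higher, 742 lower), 738 lower without fasted replicate 1 and 2414 without fasted pericentral replicate 1. Of the 2162 calls, 1065 (49.3%) held in all 12 such fits. Other settings called 2163 (DESeq2 size factors), 2174 (upper-quartile scaling), 2634 (DESeq2's Wald test), 1829 (no filter), 2192 (at least 1 CPM in 3 libraries) and 1573 (periportal libraries alone, 1460 of them shared). Pericentral calls ranged from 1593 without fed pericentral replicate 3, and 1664 without replicate 2, to 2618. The zone difference was called for 0 to 2 genes (2 without fasted pericentral replicate 1), for 11 by DESeq2's Wald test and for 1 without a filter. The causes were not tested.

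Same-numbered fed and fasted periportal libraries had correlations of their deviations from -0.0019 to 0.098. Over all pairs of groups, pairs across zones included, same-numbered libraries had -0.115 to 0.269. Such values cannot say whether libraries of one number share a mouse, a day or a run, and the labels do not give it. With the replicate block 2223 genes were called, 2019 of them shared with the fit without it, and the zone difference was called for 0. Lists with counts moved by over 1.5 times under the block were gluconeogenesis (4 lower against 2), glycogen (1 higher against 4), triglyceride genes (3 lower against 1), PPAR alpha and ATF4 genes (1 and 2 lower against 0 and 1), autophagy and bile acid genes (1 lower each against 2), immediate-early genes (1 higher against 2) and mitochondrial and nuclear respiratory genes (1 and 2 higher against 0).

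Among the 170 called genes named in the text, 130 kept their call in all 12 fits that leave out 1 library. Calls were lost for 2 with DESeq2 size factors, 3 with upper-quartile scaling, 20 without a filter, 22 with periportal libraries alone (among them Thrsp, Pik3r1, Chrna4 and Igfals), 11 with the block and 0 with the other settings. The sign turned in some fit for 10 genes without a call. Over the fits that leave out 1 library, the log2 fold change went from -0.105 to 0.267 for Cps1, -0.79 to 0.209 for Cyp2e1, -0.233 to 0.153 for Ddit3, -0.166 to 0.0848 for Dusp1, -0.0613 to 0.0732 for Fbp1, -0.371 to 0.0545 for Fdft1, -0.568 to 0.253 for Mki67, -0.134 to 0.546 for Msmo1, -0.013 to 0.0224 for Nr3c1 and -0.00146 to 0.341 for Srebf2. For Cps1 it was -0.000838 with upper-quartile scaling, and for Nr3c1 0.00354 with DESeq2 size factors, 0.0036 with DESeq2's Wald test and 0.00791 with periportal libraries alone.

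Other list counts also moved by over 1.5 times. DESeq2's Wald test called 4 gluconeogenesis, 4 lipoprotein, 3 triglyceride and 2 growth arrest genes lower (2, 2, 1 and 1 by edgeR), 8 drug metabolism genes each higher and lower (4 and 5), 7 hepatocyte transcription factors lower (4), 4 immediate-early genes higher and 3 lower (2 and 1), and 2 mitochondrial and 4 nuclear respiratory genes higher (0). Without a filter 1 growth hormone and 1 bile acid gene, 2 Nrf2 genes and 2 triglyceride genes were lower (2, 2, 4 and 1), and 1 immediate-early gene was higher (2). With periportal libraries alone 2 growth hormone genes were higher (4), 0 growth hormone, bile acid and insulin genes lower (2, 2 and 1), 1 gluconeogenesis, autophagy and nuclear respiratory gene each lower (2 each) and 3 immediate-early genes lower (1). With DESeq2 size factors 1 autophagy gene was lower (2), and there, as with at least 1 CPM in 3 libraries, 1 mitochondrial gene was higher (0). Of list medians above 0.1 in size that the text prints, that of triglyceride genes was 0.21 with periportal libraries alone.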

Other observations

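The genes of this and the next paragraph stand outside the lists, apart from Hspa1a and Hspa1b of the immediate-early list, and were picked after their values were seen, so they describe single genes and no group. Hsp90aa1, the inducible cytosolic HSP90, stood at 542, 283 and 442 CPM fed and 121, 87.7 and 111 CPM fasted (-1.99 ± 0.26; edgeR adjusted p = 0.00056). Chordc1, an HSP90 partner, fell by 1.81 ± 0.20 and Bag3, a co-chaperone of HSP70, by 1.81 ± 0.36 on the log2 scale. Hspa1a and Hspa1b, the inducible HSP70 genes, had -1.68 ± 0.97 and -2.94 ± 1.11 and were not called; they are near-identical and share reads. The tubulins Tuba1c, Tubb4b and Tubb2a fell by 2.38 ± 0.17, 1.89 ± 0.18 and 1.87 ± 0.36. Fed and fasted libraries did not overlap for Tuba1c, at 275, 295 and 321 and 50.1, 71.1 and 49.6 CPM. Car3, a carbonic anhydrase, went from 546, 619.8 and 482 to 104, 156 and 119.9 CPM (-2.11 ± 0.18).

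Other such genes were called higher. Ppm1k, the phosphatase that activates branched-chain amino acid oxidation, went from 13.3, 10.1 and 9.1 to 76.3, 56.8 and 58.4 CPM (2.55 ± 0.27; edgeR adjusted p = 0.00018), and Sik1, a kinase induced by cAMP, from 36.6, 24.4 and 27.2 to 174, 78.9 and 114 CPM (2.05 ± 0.36). Crebrf rose by 2.16 ± 0.27, Cirbp, a cold-inducible RNA-binding protein, by 2.16 ± 0.35, Slc25a25, a mitochondrial ATP-magnesium carrier, by 2.11 ± 0.33, and Il1r1, the interleukin 1 receptor, by 2.13 ± 0.26. In pericentral hepatocytes the values of Ppm1k and Sik1 were 2.47 ± 0.26 and 2.63 ± 0.37.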
